A study of Mus musculus with 9 samples.

Results

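The 10 genes described here encode tubulin, the subunit of microtubules. They were the rows of the expression table whose symbol was Tubb3, Tubb2a, Tubb2b, Tubb4b, Tubb5 or Tubb6, which encode beta tubulins, or Tuba1a, Tuba1b, Tuba1c or Tuba4a, which encode alpha tubulins. All 10 were found among the 22322 genes of the table, and all 10 passed the filter on low counts that left 12145 genes for testing. The set was chosen by gene family with results of these data in view. Among them was the rise of Tubb3 in cells given the conditioned medium over aging cells without it. Counts of Tubb3 in aging cells were thus part of that value, also where aging cells are compared with normal ones. Contrasts with the conditioned medium are therefore described for the 10 genes by their values and standard errors with no p-value printed. The numbers of members past the threshold in these contrasts are a description from which nothing is read.

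RNA was sequenced from mouse cells sold as retinal ganglion cells (RGCs), labelled wild type, in 3 groups of 3 libraries each. Normal RGCs were grown in medium with serum. Aging RGCs were treated with D-galactose, a sugar used to bring on signs of senescence in culture. Aging RGCs + USCs medium were given D-galactose and then medium conditioned by USCs, stem cells grown from human urine, with those cells removed. All groups came from cells passaged with trypsin, and the replicates of a group were 3 wells, so that p-values measure the spread between wells, which may be technical. No group held aging cells given a medium conditioned by another cell type, or the medium of USCs without conditioning. The paper grew USCs in a purchased medium made for them, and RGCs in high glucose medium with serum. Effects of the base medium and of conditioning by USCs therefore cannot be told apart.

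Microtubules are hollow polymers of dimers made of 1 alpha and 1 beta tubulin, and they carry transport, cell shape and the mitotic spindle. Tubb3, the class III beta tubulin, is known as a marker of neurons, and RGCs of the retina stain strongly for it. Tubb2a, Tubb2b and Tuba1a are also abundant in neurons, while Tubb5, Tubb4b, Tubb6, Tuba1b and Tuba1c are found in many dividing cells and Tuba4a accumulates in mature tissues. Cells also adjust the amount of tubulin through its mRNA: when free dimers are in excess, the adaptor encoded by Ttc5 binds the start of the newly made tubulin chain at the ribosome, and the mRNA is degraded.

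The signal for that control is the start of the protein chain, which the first codons encode. These codons are shown for 9 of the 10 members, without Tubb6. Capitals mark the codons after the start codon, as read from GENCODE M21 transcripts on GRCm38 (mm10):
Tubb3: atgAGGGAGATC
Tubb2a: atgCGCGAGATC
Tubb2b: atgCGAGAGATC
Tubb4b: atgAGGGAGATC
Tubb5: atgAGGGAAATC
Tuba1a: atgCGTGAGTGC
Tuba1b: atgCGTGAGTGC
Tuba1c: atgCGTGAGTGC
Tuba4a: atgCGCGAGTGC
Tubb3 and Tubb4b shared all 12 bases, and the 3 Tuba1 genes shared another 12.

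Beta tubulins differ most at their end, the acidic tail that faces outward from the microtubule and receives modifying enzymes. The last 60 coding bases with the stop codon show how far Tubb3 stands from the common form, with capitals for bases that do not match Tubb5 in the alignment of both coding sequences:
Tubb5 (chr17:35834982-35835041, minus strand): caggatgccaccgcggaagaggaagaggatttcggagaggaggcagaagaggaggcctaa
Tubb3 (chr8:123421623-123421682, plus strand): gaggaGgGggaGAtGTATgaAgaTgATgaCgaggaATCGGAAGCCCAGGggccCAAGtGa
Tubb2a (chr13:34074468-34074527, minus strand): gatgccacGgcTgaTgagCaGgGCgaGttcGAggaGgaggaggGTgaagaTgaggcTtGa
Tubb2b (chr13:34127471-34127530, minus strand): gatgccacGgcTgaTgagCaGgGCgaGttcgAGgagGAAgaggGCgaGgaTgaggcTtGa
In this stretch 32 bases of Tubb3 did not match Tubb5, against 16 of Tubb2a and 19 of Tubb2b. Tubb2a and Tubb2b resembled each other closely, with 96.5% identical coding bases and a longest shared run of 551 bases. Tubb3 matched its closest member, Tubb6, at 85.9% of coding bases, and their longest shared run was 47 bases.

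These likenesses bear on the counts, because a read that fits several genes is split between them by estimation and leaves a decimal. Tubb3, Tubb4b, Tubb5 and Tubb6 had whole counts in all 9 libraries. Decimals were found for Tubb2a, Tubb2b, Tuba1a, Tuba1b, Tuba1c and Tuba4a, so values of these 6 genes are less certain. The counts of Tubb2a and Tubb2b summed to whole numbers in 9 of 9 libraries within a tolerance of 0.015, and so did those of Tuba4a and Stk16, a gene on the other strand that shares exon bases with it. Coding identity was 98.3% between Tuba1a and Tuba1b and 97.9% between Tuba1b and Tuba1c, and both Tuba1a and Tuba1b also share exon bases with Gm49450 on their own strand.

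The libraries held 18189616 to 22342288 expected counts, and the 10 genes took 0.4145% to 0.4382% of a normal library, 0.508% to 0.5175% of an aging library and 0.59% to 0.601% of a medium-treated library. The label of retinal ganglion cells was only partly met. Of 25 RGC and neuronal markers, 9 passed the low-count filter and 5 had no count in any library, which were Pou4f2, Pou4f3, Rbfox3, Stmn2 and Dcx. Thy1, a surface protein used to purify RGCs, had 1 count in each of 2 libraries and 0 in the other 7, whereas Rbpms, an RNA-binding protein used to mark RGCs, was at 45.5 to 61.6 CPM and Isl1 at 11.1 to 21.6 CPM. CPM is the count scaled to a fixed library size, here with the TMM factors of edgeR. The proliferation genes summed to 3431 to 4832 CPM per library, and the cells are called RGCs below only as the labels do.

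In normal RGCs the levels of the 10 genes spread widely. On the FPKM scale, which is corrected for transcript length, Tuba1b stood highest at 831.7 ± 31.9 (SD, n = 3) and Tubb3 lowest at 2.58 ± 0.257. Between them came Tubb5 at 462.9, Tuba1a at 296.1, Tuba1c at 239.9, Tubb4b at 142.9, Tubb6 at 130.0, Tuba4a at 39.2, Tubb2b at 16.6 and Tubb2a at 13.4 FPKM, and no neighbours in this order overlapped in their 3 libraries. In aging RGCs Tubb2a stood above Tubb2b, at 11.6 against 7.09 FPKM, and Tuba1a and Tuba1c, at 296.6 and 281.7 FPKM, overlapped. In aging RGCs + USCs medium Tubb6 stood above Tubb4b, at 203.4 against 190.1 FPKM, and Tubb2b was again above Tubb2a. Tubb3 was the lowest of the 10 in every group. Its place among all 22322 genes by mean FPKM was 9720 in normal RGCs, 10389 in aging RGCs and 5955 in aging RGCs + USCs medium.

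**Figure D1:**
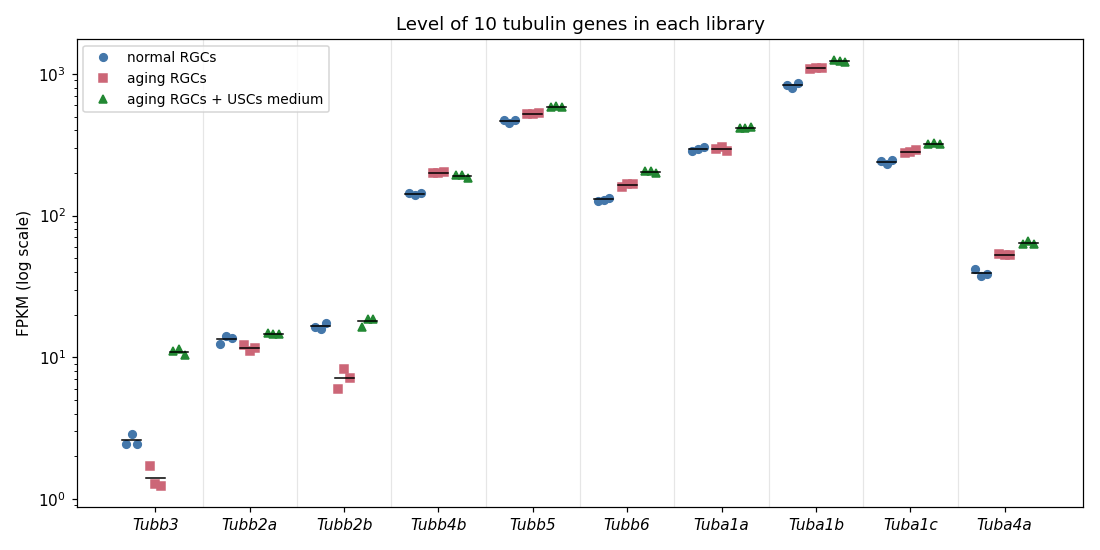
Level of the 10 tubulin genes in each of the 9 libraries, in FPKM on a log scale, with points for libraries, black bars for group means and shape and colour for the group. Tubb3 lies lowest in every group and is the gene whose 3 medium-treated libraries, at 10.4 to 11.4 FPKM, lie furthest above the other 6, at 1.23 to 2.88 FPKM.

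Tubb3 lies at chr8:123411424-123422015 on the plus strand of GRCm38 and has 4 coding exons. Its expected counts were 102, 93 and 90 in normal RGCs, 58, 46 and 45 in aging RGCs, and 412, 447 and 393 in aging RGCs + USCs medium. The 3 groups did not overlap, with aging lowest and medium-treated highest. In CPM the levels were 4.46 ± 0.0463 (SD, n = 3), 2.59 ± 0.471 and 21.2 ± 1.03. Between normal and aging RGCs Tubb3 fell by 0.78 on the log2 scale (standard error 0.155), to 0.581 times the normal level (adjusted p = 0.000132, from the quasi-likelihood F test of edgeR, corrected over all genes tested). Aging RGCs + USCs medium held 8.16 times the level of aging RGCs, a log2 difference of 3.03 (standard error 0.129). They also held 4.75 times the level of normal RGCs, a log2 difference of 2.25 (standard error 0.116). The aging value rests on 45 to 58 reads per library, which limits its precision. Those reads also entered the rise behind the choice of the set, so the p-value above is not independent of that choice. Tubb3 lies inside a longer annotated gene on its strand, listed in the table as Galnt2l, which the annotation calls Gm20388 and which shares no exon base with it. The expected counts of that gene ran from 0 to 485.6 and were lower with the medium, at 5.62 ± 3.81 CPM against 20.8 ± 7.79 CPM in aging RGCs (log2 difference -1.89, standard error 0.511, edgeR adjusted p = 0.00267).

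Tubb2b, at chr13:34126748-34130466 on the minus strand, was by its estimated counts the member that fell most with D-galactose. Its expected counts were 796.6, 697.5 and 754.1 in normal RGCs, 235.2, 345.9 and 302.2 in aging RGCs, and 726.4, 859.8 and 821.2 in aging RGCs + USCs medium. All aging libraries lay below all others. Tubb2b fell by 1.2 on the log2 scale in aging RGCs (standard error 0.0864, edgeR adjusted p = 4.24e-12), to 0.435 times the normal level. With the medium it was 2.66 times as high as in aging RGCs, a log2 difference of 1.41 (standard error 0.0858), and it differed from normal RGCs by 0.21 (standard error 0.0762).

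Its neighbour Tubb2a, at chr13:34074274-34078007 on the same strand, moved less. Expected counts were 448.4, 457.5 and 434.9 in normal RGCs, 356.8, 340.1 and 367.9 in aging RGCs, and 487.6, 497.2 and 473.8 with the medium. The log2 difference between aging and normal RGCs was -0.18 (standard error 0.0766), which missed the threshold in edgeR with an adjusted p of 0.0515. It was 0.42 (standard error 0.0759) between medium-treated and aging RGCs and 0.23 (standard error 0.0738) between medium-treated and normal RGCs.

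Since reads are shared within this pair, its sum is the firmer value. The pair had 1245, 1155 and 1189 reads in normal RGCs, 592, 686 and 670 in aging RGCs, and 1214, 1357 and 1295 in aging RGCs + USCs medium. Counted as 1 feature, the pair fell from 56.2 ± 2.38 CPM to 33.8 ± 1.67 CPM (SD, n = 3), a log2 difference of -0.73 (standard error 0.0563, edgeR adjusted p = 1.6e-11), and stood at 65.3 ± 2.63 CPM with the medium, a log2 difference of 0.95 (standard error 0.056) from aging RGCs. The share assigned to Tubb2b was 60.4% to 64.0% in the normal group, 39.7% to 50.4% in the aging group and 59.8% to 63.4% with the medium. The rank of Tubb2b as the member that fell most rests on this split. Between aging and normal RGCs the pair was at -0.73 and Tubb3, which had whole counts, at -0.78. The summed feature was added after the shared reads had been seen.

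The other 3 beta tubulins, which are common in dividing cells, were higher in aging than in normal RGCs. Tubb4b, at chr2:25222160-25224702 on the minus strand, had 5136, 4495 and 4581 reads in normal RGCs, 5781, 6120 and 6390 in aging RGCs, and 6246, 6520 and 5972 with the medium. It rose by 0.51 on the log2 scale in aging RGCs (standard error 0.0335, edgeR adjusted p = 5.17e-13). Medium-treated and aging libraries overlapped, at 305.9 to 323.5 CPM and 312.6 to 323.6 CPM, and the log2 difference was 0.00 (standard error 0.0331). Without TMM factors and with limma on FPKM that difference was -0.08, beside a median over all genes tested of -0.09 without TMM factors.

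Tubb5, at chr17:35833921-35838306 on the minus strand, was the most abundant beta tubulin. Normal libraries lay at 1143 to 1204 CPM, aging libraries at 1354 to 1372 CPM and medium-treated libraries at 1585 to 1642 CPM, so the 3 groups did not overlap. It rose by 0.21 (standard error 0.0285, edgeR adjusted p = 9.26e-07) in aging RGCs, and the medium-treated level lay 0.24 (standard error 0.0284) above that of aging RGCs, both on the log2 scale.

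Tubb6, at chr18:67390717-67402749 on the plus strand, followed the same order with larger steps. Its level was 215.7 to 230.3 CPM in the normal group, 276.3 to 291.0 CPM in the aging group and 361.6 to 379.5 CPM with the medium. The rise in aging RGCs was 0.36 on the log2 scale (standard error 0.0351, edgeR adjusted p = 1.81e-09), and the further difference with the medium was 0.39 (standard error 0.0344). Of the 10 genes, Tubb6 thus differed from normal RGCs by 0.75 after the medium, less only than Tubb3 and Tuba4a.

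Among the alpha tubulins, Tuba1a, the form that is abundant in developing neurons, stood apart in aging RGCs. It lies at chr15:98949837-98953703 on the minus strand and was at 501.7, 515.9 and 540.1 CPM in normal RGCs, 525.3, 545.1 and 513.6 CPM in aging RGCs, and 777.0, 783.3 and 785.6 CPM with the medium. Normal and aging libraries overlapped, and the log2 difference of 0.02 (standard error 0.0322) did not pass in edgeR (adjusted p = 0.571). Medium-treated libraries lay above all others, by 0.57 (standard error 0.0321) over aging and 0.59 (standard error 0.032) over normal RGCs on the log2 scale.

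Tuba1b, the most abundant of the 10 genes, lies at chr15:98931425-98934565 on the minus strand. It was at 1351 to 1465 CPM in the normal group, 1853 to 1898 CPM in the aging group and 2200 to 2278 CPM with the medium, with no overlap. It rose by 0.41 on the log2 scale in aging RGCs (standard error 0.0296, edgeR adjusted p = 3.69e-12) and was 0.26 (standard error 0.0295) higher again with the medium. Tuba1c, at chr15:99029891-99038110 on the plus strand, rose by 0.25 (standard error 0.0319, edgeR adjusted p = 1.88e-07) in aging RGCs and was 0.27 (standard error 0.0317) higher again. Because the 3 Tuba1 genes share long runs, they were also counted as 1 feature, which rose from 2391 ± 86.3 CPM to 2958 ± 40.5 CPM (SD, n = 3) in aging RGCs, a log2 difference of 0.31 (standard error 0.0279, edgeR adjusted p = 4.89e-10). With the medium the sum was at 3689 ± 41.1 CPM. The counts of the 3 Tuba1 genes summed to whole numbers in 0 of 9 libraries. Their sum is thus less firm than that of Tubb2a and Tubb2b, which was whole in 9 of 9.

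Tuba4a, at chr1:75214228-75219865 on the minus strand, is the alpha tubulin of mature tissues such as muscle and nerve. It was at 74.1 to 80.1 CPM in the normal group, 103.9 to 111.0 CPM in the aging group and 135.0 to 140.0 CPM with the medium. It rose by 0.49 in aging RGCs (standard error 0.0428, edgeR adjusted p = 2.47e-10), and the medium-treated level lay 0.36 (standard error 0.0411) above aging and 0.84 (standard error 0.042) above normal RGCs on the log2 scale. Its strand partner Stk16 differed by 0.12 (standard error 0.0608) between aging and normal RGCs, which did not pass in edgeR (adjusted p = 0.121).

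Between aging and normal RGCs, 6 of the 10 tubulin genes were higher and 2 lower at an adjusted p under 0.05, while among all genes tested 23.6% were higher and 23.0% lower. The 2 that fell were Tubb3 and Tubb2b, and the 2 that did not pass were Tubb2a and Tuba1a. The aging libraries lay wholly above the normal ones for 6 genes and wholly below for 3, beside 27.0% and 26.0% of all genes. The median log2 difference was 0.23 over the 10 genes and 0.00 over all genes. The aging libraries entered this comparison and the next alike, and their Tubb3 counts were part of the value behind the choice of the set. Between medium-treated and aging RGCs, 9 of 10 were higher and 0 lower in the edgeR fit, beside 27.1% and 26.0% of all genes (53.1% either way), and the remaining gene was Tubb4b, with a log2 difference of 0.00. The medium-treated libraries lay wholly above the aging ones for 9 members and wholly below for 0, beside 30.4% and 29.3% of all genes. Between medium-treated and normal RGCs all 10 were higher, beside 30.6% of all genes higher and 29.9% lower (60.5% either way), but 8 were higher without TMM factors, which left out Tubb2a at 0.13 and Tubb2b at 0.11 on the log2 scale. The medians over the 10 genes were 0.37 and 0.56 in these contrasts, and over all genes -0.01 in each. Nothing is read from the counts and medians of either contrast with the medium, since the rise of Tubb3 with the medium lay behind the choice of the set.

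A stricter rule asked for a difference of at least 2-fold together with an adjusted p under 0.05. Tubb2b met it between aging and normal RGCs, where 1.09% of all genes were that much higher and 1.56% lower. Tubb3 and Tubb2b met it between medium-treated and aging RGCs, where 1.24% of all genes were that much higher and 4.21% lower. Tubb3 alone met it between medium-treated and normal RGCs, beside 1.47% higher and 5.24% lower. Nothing is read from the genes meeting the rule in either contrast with the medium, since the rise of Tubb3 there lay behind the choice of the set. The 2-fold values of Tubb2b rest on the estimated split of reads with Tubb2a, and the summed pair stayed under 2-fold at -0.73 and 0.95.

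**Figure D2:**
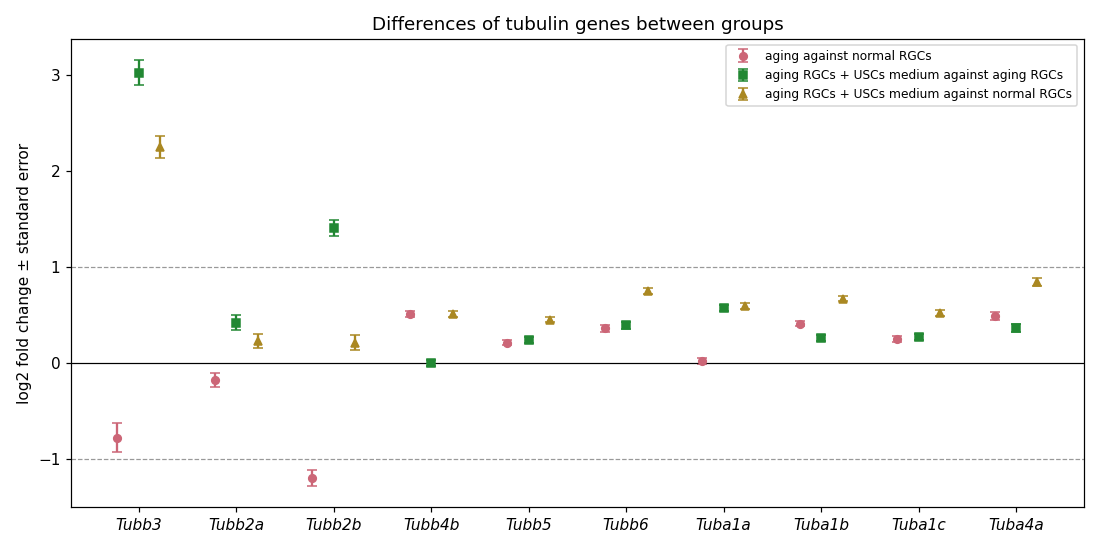
Log2 fold change of each tubulin gene in the 3 comparisons, with shape and colour for the comparison, bars for the standard error of the edgeR fit and dashed lines at 1 and -1. Tubb3 reaches 3.03 with the medium against aging RGCs, Tubb2b 1.41, and the other 8 genes lie between 0.00 and 0.57.

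The make-up of the tubulin mRNA was then described as shares of the summed FPKM, separately for the 6 beta and 4 alpha genes. Tubb5 made up 60.2% ± 0.714 (SD, n = 3) of beta tubulin FPKM in normal RGCs, 57.6% ± 0.293 in aging RGCs and 57.3% ± 0.381 with the medium. Tubb4b went from 18.6% ± 0.1 to 22.1% ± 0.22 and was at 18.6% ± 0.251 with the medium, so its share with the medium lay near the normal one although its level did not. Tubb6 went from 16.9% ± 0.482 to 18.1% ± 0.308 and 19.9% ± 0.218.

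The beta tubulins named above as abundant in neurons, Tubb3, Tubb2b and Tubb2a, were minor throughout. Tubb3 made up 0.337% ± 0.0413 of beta tubulin FPKM in normal RGCs, 0.155% ± 0.0305 in aging RGCs and 1.07% ± 0.033 with the medium. Tubb2b made up 2.16% ± 0.0669, 0.779% ± 0.124 and 1.75% ± 0.128, and Tubb2a 1.75% ± 0.14, 1.28% ± 0.0729 and 1.44% ± 0.0243. Thus even where Tubb3 was highest, Tubb5 FPKM exceeded it by far, at 586.8 against 10.9.

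Of alpha tubulin FPKM, Tuba1b made up 59.1% ± 0.474 in normal RGCs, 63.4% ± 0.116 in aging RGCs and 60.6% ± 0.438 with the medium. Tuba1a went the other way, from 21.1% ± 0.609 to 17.2% ± 0.44 and 20.4% ± 0.33. Tuba1c was at 17.1%, 16.3% and 15.8%, and Tuba4a at 2.79%, 3.08% and 3.14%. The split between the Tuba1 genes rests on estimated counts. FPKM of Tubb3 and Tuba4a were computed by the authors with lengths that varied between libraries, from 1610 to 1873 bases and from 1972 to 2144 bases as implied by count and FPKM.

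**Figure D3:**
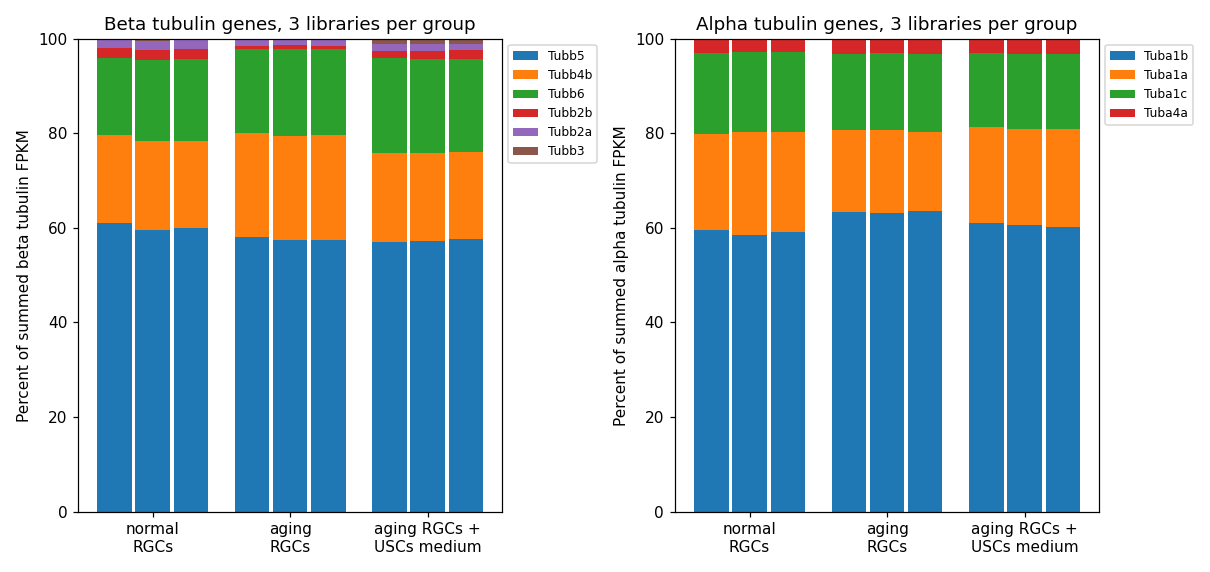
Share of each gene in the summed FPKM of the beta tubulin genes and of the alpha tubulin genes, in percent, with 1 bar for each of the 3 libraries of a group. Tubb5 and Tuba1b fill more than any other gene in every library, and the strip of Tubb3 is widest with the medium, at 1.07%.

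Genes that fold, modify or use tubulin were taken from 8 lists with 127 genes, of which 103 passed the low-count filter. These lists and the marker lists were chosen with earlier results of these data known. The p-values printed for their genes may therefore not be independent of that choice. Between aging and normal RGCs 23 of them were higher and 27 lower, and between medium-treated and aging RGCs 39 were higher and 17 lower. Over all genes tested, 46.5% were called either way in the first comparison (23.6% higher, 23.0% lower) and 53.1% in the second (27.1% and 26.0%). Without TMM factors the second split was 34 and 26. Between medium-treated and normal RGCs 40 were higher and 23 lower, beside 30.6% and 29.9% of all genes, and without TMM factors 30 and 39, so the direction of that balance depended on the scaling. The shares over all genes in each comparison also stand as background to the counts of each list below. Of the genes named below, Haus8 in aging against normal RGCs, Pafah1b1 with the medium against aging RGCs, and Cnot11, Agtpbp1 and Dync1i2 with the medium against normal RGCs kept their call in only 1 of 3 other scalings.

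Tubulin is folded by the chaperonin CCT, fed by prefoldin and finished by cofactors. Of 21 folding genes, 4 were higher and 4 lower in aging than in normal RGCs, or 3 and 5 without TMM factors. With the medium against aging RGCs, 15 were higher and 0 lower, beside 27.1% and 26.0% of all genes, with a list median of 0.28, and 14 were higher without TMM factors. All 8 CCT subunits were among them, with log2 differences of 0.28 to 0.43. Cct5 rose by 0.43 (standard error 0.0308, edgeR adjusted p = 2.56e-12), Tbcb, a cofactor, by 0.46 (adjusted p = 1.19e-05 by edgeR), and Pfdn6, a prefoldin subunit, by 0.43 (adjusted p = 1.56e-06 by edgeR). In aging RGCs Cct6a, Cct8 and Cct3 rose by 0.19, 0.18 and 0.14, while Tbcel fell by 0.41, Pfdn6 by 0.34 and Pfdn2 by 0.16. Against normal RGCs, medium-treated cells had Cct8 higher by 0.61, Cct3 by 0.54 and Cct6a by 0.53, and Tbcel and Tbcc lower, at -0.39 and -0.31.

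Of the 5 genes of tubulin mRNA control, Ttc5, the adaptor that binds the start of the new tubulin chain, fell by 0.35 in aging RGCs (standard error 0.0914, edgeR adjusted p = 0.00231). It differed by -0.11 (standard error 0.0959) with the medium, which did not pass. Scaper, which links Ttc5 to the deadenylase, fell by 0.37 in aging RGCs and rose by 0.46 with the medium (edgeR adjusted p = 0.000196), and Cnot1, the scaffold of that deadenylase, rose by 0.10 in aging RGCs, a call lost without TMM factors. Its subunit gene Cnot10 rose by 0.26 with the medium. Against normal RGCs, Ttc5 was lower by 0.46 on the log2 scale, and Cnot10 and Cnot11 were higher at 0.26 and 0.14.

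Of 16 modification genes tested, 3 were higher and 4 lower in aging RGCs, and 5 were higher and 5 lower with the medium against aging RGCs. Ttll1, a glutamylase, fell by 0.62 in aging RGCs, Ttll7 by 0.50 and Hdac6, a tubulin deacetylase, by 0.28, while Ttll3, Ttll5 and Ttll4 rose by 0.52, 0.43 and 0.17. With the medium Ttl, the enzyme that puts tyrosine back on alpha tubulin, rose by 0.40 (edgeR adjusted p = 7.62e-06), Hdac6 by 0.33 and Ttll7 by 0.26. Lower were Ttll3 at -0.53, Svbp, the partner of the enzymes that remove the tyrosine, at -0.45, and Agbl5 at -0.28. Against normal RGCs 5 were higher and 5 lower, with Ttl at 0.41, Ttll5 at 0.21 and Agtpbp1 at 0.19 on top and Ttll11 at -0.77, Ttll1 at -0.51 and Atat1, the tubulin acetylase, at -0.31 at the bottom. The last split was 1 and 6 without TMM factors and 2 and 5 with upper-quartile factors, and the one before it was 4 and 7 without TMM factors.

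Of 14 microtubule nucleation genes tested, 8 were higher, 0 lower and 6 not past the threshold in aging against normal RGCs, beside 23.6% and 23.0% of all genes, and 6 were higher without TMM factors and with DESeq2. The leading genes were Haus4 at 0.39, Haus8 at 0.28 and Cdk5rap2 at 0.26. With the medium against aging RGCs 6 were higher and 3 lower, with Haus8 at 0.55, Nedd1 at 0.33 and Tubgcp4 at 0.31, and Haus6 and Cdk5rap2 both at -0.28 and Tubgcp6 at -0.12. Against normal RGCs 10 were higher and 0 lower, led by Haus8 at 0.82, Tpx2 at 0.44 and Haus4 at 0.40, but 7 were higher and 3 lower without TMM factors.

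Of the 10 further tubulin genes, 4 passed the low-count filter, which were Tubb4a, Tubg1, Tubd1 and Tube1. Tube1 rose by 0.36 and Tubg1, the gamma tubulin of the centrosome, fell by 0.15 in aging RGCs. With the medium Tubd1 rose by 0.42 and Tubg1 by 0.19, and 0 of the 4 passed against normal RGCs. Tubb4a, a beta tubulin of neurons and oligodendrocytes, was at 0.75 to 0.96 CPM on average and did not pass in any comparison.

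Of 20 stabilising and plus-end genes tested, 2 were higher and 6 lower in aging RGCs. Mtus1 fell by 0.95, Map1a, an axonal microtubule-associated protein, by 0.70 and Mapre3, the neuronal end-binding protein, by 0.67, while Mapre2 and Mapre1 rose by 0.23 and 0.18. With the medium against aging RGCs 4 were higher and 6 lower. Map6, which protects microtubules from cold, rose by 0.80 (standard error 0.113, edgeR adjusted p = 8.73e-07), from 7.90 ± 0.939 CPM to 13.7 ± 0.955 CPM, and Map1b and Map4 rose by 0.28 and 0.25. Lower were Map2, the dendritic protein, at -0.47, Clip2 at -0.43 and Mapre3 at -0.39. Against normal RGCs Mapre3 was lower at -1.07, Map1a at -0.89 and Mtus1 at -0.83, and Map6, Ckap5 and Mapre1 were higher at 0.82, 0.30 and 0.21. That comparison had 4 genes higher and 6 lower, or 4 and 12 without TMM factors.

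Of 10 destabilising and severing genes tested, 4 were higher in aging RGCs and 1 lower. Fignl1 rose by 0.44, Kif2c by 0.37 and Kif18a by 0.26, and Katnal1 fell by 0.44. With the medium against aging RGCs Fignl1 rose by 0.21 and Stmn1, which binds free dimers, was at -0.16. Against normal RGCs Fignl1 was higher by 0.65, Kif18a and Kif2c by 0.37 each, and Katnal1 was at -0.68. Without TMM factors the 3 splits were 4 and 2, 1 and 3, and 4 and 3. Stmn2, a stathmin of neurons, had no count in any library.

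Of 13 axonal motors and adaptors tested, 0 were higher and 9 lower in aging than in normal RGCs and 4 did not pass, with 8 lower in DESeq2, beside 23.6% and 23.0% of all genes, with a list median of -0.13. Klc2, a kinesin light chain, fell by 0.68 (standard error 0.0912, edgeR adjusted p = 5.2e-07), Kif3a by 0.41 and Klc1 by 0.27. With the medium against aging RGCs 4 were higher, Klc2 at 0.35, Dync1i2 at 0.23, Kif3a at 0.15 and Pafah1b1 at 0.08, and 2 lower, Kif5c at -0.88 and Dync1h1 at -0.13. Without TMM factors that split was 2 higher and 4 lower. Kif5c, a neuronal kinesin heavy chain, went from 12.6 ± 0.620 CPM to 6.86 ± 0.692 CPM (standard error 0.11, edgeR adjusted p = 1.3e-07). Against normal RGCs 8 were lower, with Kif5c at -0.99, Klc2 at -0.33 and Kif3b at -0.30, and Dync1i2 was higher at 0.10, while without TMM factors 0 were higher and 11 lower. The sign of Dync1i2 in that last comparison turned in 3 of the alternative fits.

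**Figure D4:**
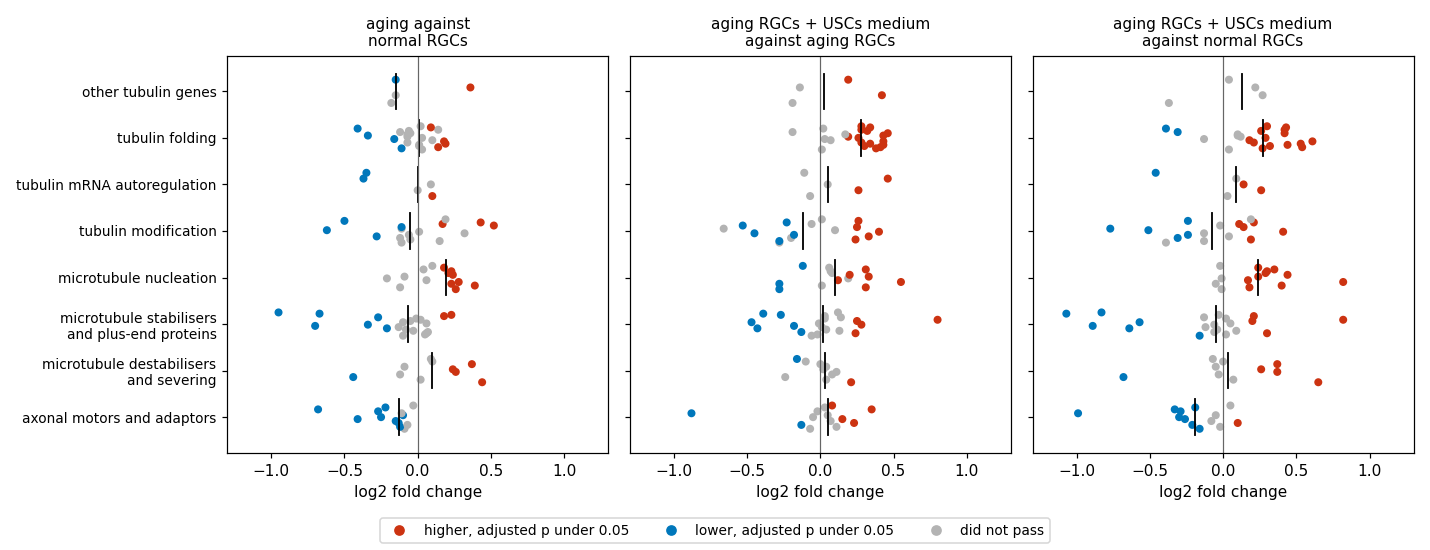
Log2 fold change of the 103 tested partner genes by list and comparison, with 1 point per gene, red and blue for genes higher and lower at an adjusted p under 0.05, grey for genes that did not pass, and black bars for list medians. The folding genes lie to the right with the medium, with a median of 0.28, and the axonal motors to the left in aging RGCs, with a median of -0.13.

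Other neuronal genes were set beside Tubb3. Of the 9 neuronal markers tested, 0 were higher and 4 lower with the medium against aging RGCs, beside 27.1% and 26.0% of all genes. Nefl, the light neurofilament, averaged 63.6 ± 5.38 CPM in normal RGCs, against 38.4 ± 2.68 CPM in aging RGCs and 17.3 ± 1.08 CPM with the medium (SD, n = 3). It fell by 0.73 in aging RGCs (standard error 0.0647, edgeR adjusted p = 3.35e-10) and by a further 1.15 on the log2 scale with the medium (standard error 0.0758, edgeR adjusted p = 3.99e-13). Nefl is thus ordered normal, aging, medium-treated from high to low, whereas Tubb3 is ordered medium-treated, normal, aging. Nefl had decimals in all 9 libraries.

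Syt1, a synaptic vesicle protein, was at 77 to 110 reads in the normal group, 33 to 51 in the aging group and 15 to 24 with the medium. It fell by 1.08 in aging RGCs and by 1.12 with the medium (edgeR adjusted p = 0.00127). Ina rose by 0.66 in aging RGCs and fell by 0.77 with the medium. Rbpms and Isl1 fell by 0.30 and 0.66 in aging RGCs, and with the medium their log2 differences of -0.05 and 0.13 did not pass. The 25 neuronal markers summed to 172.1 to 187.1 CPM in the normal group, 129.7 to 136.2 CPM in the aging group and 96.9 to 108.2 CPM with the medium. Only 9 of the 25 had passed the low-count filter. Nefl and Rbpms made up much of these sums, and Nefl much of their decrease. In bulk RNA a smaller share of cells of a type and less RNA per cell cannot be told apart.

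**Figure D5:**
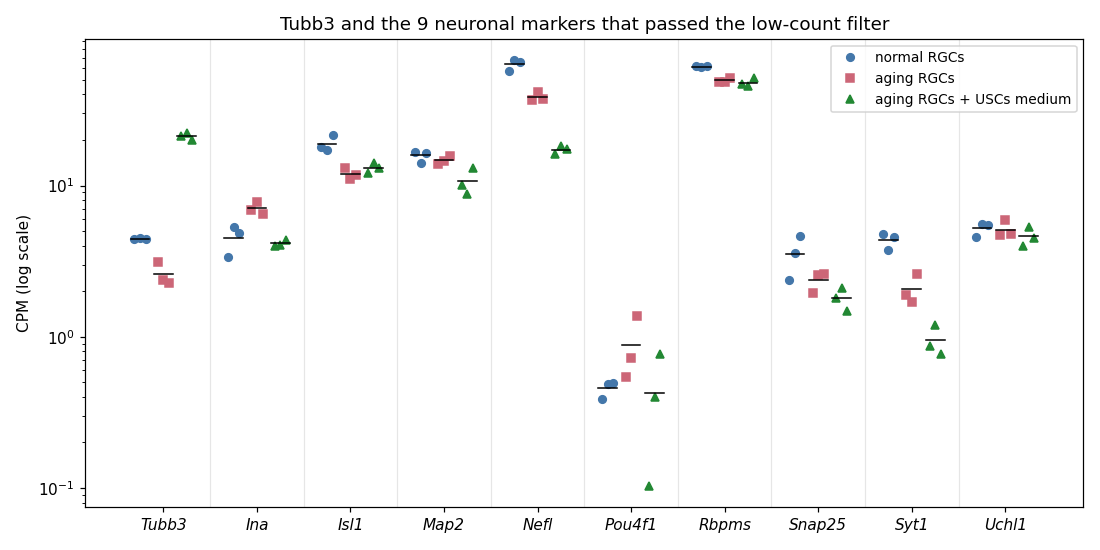
CPM of Tubb3 and of the 9 neuronal markers that passed the low-count filter, on a log scale, with points for libraries, black bars for means and shape and colour for the group. Tubb3 is highest with the medium at 20.1 to 22.2 CPM, whereas Nefl and Syt1 are lowest there.

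Other marker lists also moved with the groups, and their part in the tubulin values was not tested. All 15 proliferation genes were higher in aging than in normal RGCs, beside 23.6% of all genes, with a list median of 0.38, and their sum was 3431 to 3665 CPM in the normal group, 4414 to 4553 CPM in the aging group and 4729 to 4832 CPM with the medium. With the medium against aging RGCs, 8 of these genes were higher, 1 lower and 6 not past the threshold, beside 27.1% and 26.0% of all genes. The list median was 0.14 there, or 0.06 without TMM factors, where 7 were higher and 2 lower. The order of groups in the sum was also that of Tubb5, Tubb6, Tuba1b, Tuba1c and Tuba4a, but single proliferation genes were mixed in the second step. The 10 mesenchymal markers summed to 428.4 to 509.1, 396.7 to 408.3 and 242.2 to 246.2 CPM in the same order of groups, and Col3a1 made up most of that. The 10 epithelial markers summed to 1047 to 1141 CPM in normal, 1077 to 1103 CPM in aging and 1236 to 1285 CPM in medium-treated libraries, mostly from Krt8, Krt18 and Krt19, with Krt5 and Esrp1 at 0 in every library. The 8 retinal glia markers summed to 1765 to 1859, 2061 to 2133 and 2031 to 2167 CPM in that order, nearly all from Vim, while Gfap, Rlbp1 and Aqp4 were near 0. The 12 macrophage markers summed to 64.9 to 74.9, 52.2 to 57.1 and 33.2 to 57.8 CPM. Of 9 tested, 1 was higher and 6 lower in aging against normal RGCs, beside 23.6% and 23.0% of all genes. With DESeq2 that split was 1 and 2. The 10 photoreceptor markers summed to 0.149 to 1.23 CPM.

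Across the 9 libraries, the 5 genes whose log2 CPM followed Tubb3 most closely were Lcn2 (Pearson r = 0.9964), Farsb (0.9956), Adss (0.9947), Ly6a (0.9946) and Xdh (0.9942). These values describe 3 groups of libraries that share their treatment, so they carry no p-value. Lcn2, a secreted iron-binding lipocalin, was at 7.52 ± 0.289 CPM in normal RGCs, 4.33 ± 0.692 CPM in aging RGCs and 79.0 ± 3.84 CPM with the medium. Ly6a, a surface protein, was at 116.0 ± 4.39, 98.9 ± 3.93 and 234.1 ± 6.37 CPM. Farsb, a subunit of a tRNA synthetase, went from 104.2 to 92.8 and 140.7 CPM, so likeness in pattern did not mean likeness in size. The order depended on the scale: on log2(FPKM + 1), Lcn2, Ly6a and Xdh ranked 2, 4 and 5, but Farsb and Adss ranked 24 and 43. Of the other tubulin genes, Tuba1a (0.95) and Tubb2a (0.93) followed Tubb3 most closely and Tubb4b (0.28) least. Among all genes tested, however, Tuba1a ranked 291 and Tubb2a 468. Tuba1a also did not share the fall of Tubb3 in aging RGCs, with log2 differences of 0.02 and -0.78.

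The genes annotated beside Tubb3 moved in either direction. Mc1r, the nearest, had 0 to 4 reads per library and was not tested. With the medium against aging RGCs, Def8 fell by 0.33 (standard error 0.0645, edgeR adjusted p = 8.54e-05), Dbndd1 by 0.90 and Tcf25 by 0.11, whereas Spire2 rose by 0.33 and Afg3l1 by 0.22, and the log2 differences of Gas8 and Fanca, -0.06 and 0.08, did not pass. These 2 higher and 3 lower of 7 tested stand beside 27.1% and 26.0% of all genes, and without TMM factors 1 was higher and 3 lower.

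Promoters were searched for 6 short motifs in the RefSeq table on GRCm38.p6, which gives 250 bases before and 50 after each start and held 8 of the members. The promoters of Tubb3, Tuba1a and Tubb4b are shown because, of the other members, Tuba1a followed Tubb3 most closely across libraries and Tubb4b least, with motif matches in capitals:
Tubb3 (chr8:123411303-123411602, plus strand): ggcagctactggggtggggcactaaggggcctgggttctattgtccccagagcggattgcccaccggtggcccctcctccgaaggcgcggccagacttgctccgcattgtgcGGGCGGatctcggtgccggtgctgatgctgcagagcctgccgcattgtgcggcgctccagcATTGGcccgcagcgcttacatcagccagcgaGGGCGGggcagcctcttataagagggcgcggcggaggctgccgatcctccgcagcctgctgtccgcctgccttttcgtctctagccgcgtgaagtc
Tuba1a (chr15:98953452-98953751, minus strand): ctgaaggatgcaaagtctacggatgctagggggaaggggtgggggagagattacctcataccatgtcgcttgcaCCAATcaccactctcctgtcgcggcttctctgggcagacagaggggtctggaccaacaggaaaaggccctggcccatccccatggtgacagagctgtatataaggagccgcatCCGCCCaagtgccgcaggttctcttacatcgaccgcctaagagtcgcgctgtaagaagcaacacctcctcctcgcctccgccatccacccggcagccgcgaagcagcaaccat
Tubb4b (chr2:25224653-25224952, minus strand): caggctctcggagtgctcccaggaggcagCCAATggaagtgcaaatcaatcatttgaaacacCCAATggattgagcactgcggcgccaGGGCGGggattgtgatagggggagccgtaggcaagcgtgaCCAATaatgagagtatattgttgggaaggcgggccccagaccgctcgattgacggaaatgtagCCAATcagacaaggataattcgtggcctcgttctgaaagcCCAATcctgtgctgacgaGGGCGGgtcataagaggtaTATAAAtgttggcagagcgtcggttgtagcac
The GC box GGGCGG was found on either strand in 7 of 8 members and in 35.7% of all 32851 promoters. The CCAAT box CCAAT was found in 5 of 8 and in 37.4%, the TATA box TATAAA in 2 of 8, Tubb4b and Tubb2a, and in 13.6%, and the E-box CACGTG in Tubb5 and in 7.2%. The STAT palindrome TTCNNNGAA and the AP-1 heptamer TGANTCA were found in 0 of 8 members and in 8.3% and 7.8% of all promoters. The TATAAA match of Tubb2a began at -29 relative to the start, whereas that of Tubb4b began at 18, past the start. Tubb3 held 2 GC boxes and 1 CCAAT box in 67.3% GC, against a median GC of 52.7% over all promoters. Tubb4b held 5 CCAAT boxes, 2 GC boxes and this 1 TATAAA match past the start, in 53.7% GC. None of the matches overlapped another, and a match of letters is a description, not a site.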

How the data were processed

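RNA was extracted with Trizol, selected for mRNA with oligo(dT) and sequenced in 9 libraries, 3 wells per group. The authors deposited expected counts per gene and FPKM, which corrects for depth and length. The submitters' processing notes name genome build mm10, and the aligner, counter and annotation were not given in the sources used here. Expected counts were rounded to whole numbers and tested with edgeR 4.0.16 in R 4.3.3 (TMM factors, quasi-likelihood F test, all 9 libraries, 6 residual degrees of freedom, Benjamini-Hochberg adjustment). Of 22322 genes, 45.6% did not pass the low-count filter, and 12145 were tested. A gene was called at an adjusted p under 0.05. Scripts were tested on simulated data.

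Named genes were all members, up to 3 genes per direction, list and comparison with the largest log2 change among those called, the 5 genes most correlated with Tubb3 (average log2 CPM of at least 1), cell type markers and the Tubb3 neighbours. Members and lists were chosen with earlier results of these data known. Libraries with the same replicate number showed no shared shift (correlations of deviations -0.05 to 0.05). The labels do not say whether the numbers pair samples. Alternatives were DESeq2 1.42.0, limma 3.58.1 on log2(FPKM + 1) and log2(FPKM + 0.1), other scalings and filters, a replicate block and leaving out each replicate.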

Additional observations from a re-analysis of the deposited data

How the results depend on the processing

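Between aging and normal RGCs Tubb3 kept its direction and call in every alternative run, at log2 differences of -0.94 to -0.58. These runs reuse the aging counts of Tubb3, which were part of the value behind the choice of the set. The contrasts with the medium are given as a description, since the rise of Tubb3 there lay behind that choice. The log2 difference of Tubb3 ranged from 2.32 to 3.19 between medium-treated and aging RGCs and from 1.74 to 2.28 between medium-treated and normal RGCs. Over the members other than Tubb3 and all 3 comparisons, 495 alternative values kept direction and call, 13 gained a call, 11 lost it and 9 changed sign. The changes of sign were near 0. Tuba1a between aging and normal RGCs was at -0.003 without normal replicate 1 and -0.002 without aging replicate 2. Tubb4b between medium-treated and aging RGCs was at 0.003 with DESeq2, 0.004 without the filter, 0.001 without any of the normal replicates, 0.014 without aging replicate 3 and 0.026 without medium replicate 3. Leaving out 1 replicate in turn gave -0.003 to 0.05 for Tuba1a and -0.014 to 0.026 for Tubb4b. The cause was not tested. Without TMM factors and in both limma fits 1 member, Tubb4b, was lower in that comparison. Without TMM factors, where the median of all genes moved to -0.085 and -0.113 in the contrasts with the medium, 26 and 39 partner genes were lower. At an absolute log2 difference of at least 1, the members called were 0 higher and 1 lower, then 2 higher, then 1 higher in the 3 comparisons, and the partner genes were 0 and 0, 0 and 0, and 0 higher and 1 lower. Leaving out 1 replicate gave 2 to 3 members lower between aging and normal RGCs and 8 to 10 higher between medium-treated and normal RGCs.

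With replicate number as a block, 6 members were higher and 2 lower, 9 higher and 10 higher in the 3 comparisons, and Tubb3 kept its fall in aging RGCs at -0.78. Partner counts with the block were 23 and 27, as without it, then 38 and 16, and 41 and 23. Whether the numbers pair the samples is not stated in the labels.

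From CPM, which is not corrected for length, 24 isotype shares moved by more than the SD. In normal RGCs they were 0.264% for Tubb3, 1.25% for Tubb2a, 2.08% for Tubb2b, 13.2% for Tubb4b, 70.1% for Tubb5, 13.2% for Tubb6, 57.1% for Tuba1b, 18.7% for Tuba1c and 3.12% for Tuba4a. In aging RGCs they were 0.924% for Tubb2a, 15.8% for Tubb4b, 68.1% for Tubb5, 14.2% for Tubb6, 61.3% for Tuba1b, 18% for Tuba1c and 3.52% for Tuba4a. With the medium they were 0.886% for Tubb3, 1.03% for Tubb2a, 13.3% for Tubb4b, 67.5% for Tubb5, 15.6% for Tubb6, 58.6% for Tuba1b, 17.3% for Tuba1c and 3.61% for Tuba4a.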
